A study of Mus musculus with 36 samples.

Results

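The regions described here are the 7746 broad intergenic DNase I hypersensitive sites (DHS) that lay near genes, out of 52788 DHS in the table (14.7%). A DHS was taken when it was at least 450 bp wide, overlapped no annotated gene body and had its nearest transcription start site (TSS) more than 1 kb and at most 100 kb away, by the GENCODE vM21 basic annotation on mm10. They are called the members below. No measured level entered this choice. The narrowest member was 453 bp wide, and the widest intergenic DHS at the same distances that was left out for its width was 437 bp wide.

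Hypersensitivity to DNase I marks DNA that is not wrapped by a nucleosome, and in mammalian genomes such sites away from promoters are mostly enhancers, insulators or other sites where transcription factors bind. Ikaros, encoded by Ikzf1, is a zinc-finger protein that can activate or silence genes, binds sequences with a GGGAA core and drives pre-B cells out of cycling and towards differentiation. In B-cell progenitors, distal sites are also used by Ebf1, Runx and E proteins, while the insulator protein CTCF binds sites that shape chromatin loops.

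All samples were cells of B3, a mouse pre-B lymphocyte line. The Ikaros line carried an MSCV retroviral vector for HA-Ikaros fused to the hormone-binding domain ERt2 with IRES-GFP, and the Control line carried the vector with ERt2-IRES-GFP and no Ikaros. Both lines are bulk populations of transduced cells, so the integration sites and the amount of fusion protein may vary between cells. Each line was collected at 6 times, 0 h and then 2 h, 6 h and every 6 h until 24 h, with 3 replicates a group, which gave 12 groups and 36 libraries. The labels give 0.5 µM 4-hydroxytamoxifen (4-OHT), the ligand that lets ERt2 fusions enter the nucleus, for every sample. The study's methods state that cells of 0 h received no drug and were collected apart from the others. The replicates of a group came from different batches of the time course. The labels give the 0 h libraries the same batch numbers as the later times, which does not match a separate collection.

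The values are log2 levels per kb of DHS, normalised and filtered for systematic noise by the authors, so a difference of 1 is a change by a factor of 2. The labels give a minimum of about 20 M reads per replicate, and the depth that each library reached is unknown. In a bulk library, fewer cells with an open site and less opening per cell cannot be told apart. Library medians over all DHS lay between 3.9 and 4.11. The 12 group means spanned only 6 of the 11 dimensions they could, so the values of different times are not fully independent. As a check of the labels, 2 of the 14 DHS within Ikzf1 were higher in all Ikaros libraries than in any Control library, with levels of 5.18 to 6.62 against 1.78 to 3.32 at the clearer one. Of the genes on the B-lineage factor list, 30 of 35 had a DHS within 1 kb of a TSS, as did 19 of 27 pre-B receptor, signalling and recombination genes. The same held for 5 of 15 T-lineage markers and 2 of 15 myeloid and erythroid markers.

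The DNA of 8 members is shown because their accessibility differed most between the lines at 24 h, or because they lay nearest a gene of the lists below. Each sequence is the central 300 bp of the DHS in GRCm38 (mm10), plus strand. Capitals mark matches on either strand to the Ikaros motif TGGGAA, the Runx motif TGTGGT, the Ebf1 motif CCCNNGGG and the E-protein motifs CAGCTG and CAGGTG. The first 3 were higher in the Ikaros line at 24 h. The window upstream of Clint1, which encodes a clathrin adaptor of vesicle transport (chr11:45849860-45850159), held 3 E-protein matches. The window upstream of the pseudogene Gm47669 (chr10:95708018-95708317) held 1 Runx and 2 E-protein matches, and that upstream of Gm31663 (chr7:92965145-92965444) held 1 Ikaros match.
Clint1: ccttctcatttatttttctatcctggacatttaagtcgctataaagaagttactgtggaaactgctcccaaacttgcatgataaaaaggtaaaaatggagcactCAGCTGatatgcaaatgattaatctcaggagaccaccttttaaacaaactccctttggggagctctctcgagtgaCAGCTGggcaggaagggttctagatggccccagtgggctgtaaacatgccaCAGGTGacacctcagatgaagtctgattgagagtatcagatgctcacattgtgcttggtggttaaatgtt
Gm47669: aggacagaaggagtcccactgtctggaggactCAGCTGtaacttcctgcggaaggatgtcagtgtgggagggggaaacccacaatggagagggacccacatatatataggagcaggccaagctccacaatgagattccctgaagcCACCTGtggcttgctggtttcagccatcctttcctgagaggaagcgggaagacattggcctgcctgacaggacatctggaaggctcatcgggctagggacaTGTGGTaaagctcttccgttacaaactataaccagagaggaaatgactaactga
Gm31663: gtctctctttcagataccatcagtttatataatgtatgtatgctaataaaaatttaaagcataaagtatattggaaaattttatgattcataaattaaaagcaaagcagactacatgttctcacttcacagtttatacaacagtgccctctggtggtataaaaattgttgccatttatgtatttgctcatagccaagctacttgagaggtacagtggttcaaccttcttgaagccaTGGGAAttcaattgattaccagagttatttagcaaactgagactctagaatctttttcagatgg

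The next 3 were lower in the Ikaros line at 24 h. The window downstream of the lincRNA Gm28563 (chr5:118377648-118377947) and the window upstream of Ski (chr4:155235308-155235607), a repressor of TGF-beta signalling, each held 1 Ebf1 match and none of the others. The window upstream of Gm15427 (chr1:95451824-95452123) held no match.
Gm28563: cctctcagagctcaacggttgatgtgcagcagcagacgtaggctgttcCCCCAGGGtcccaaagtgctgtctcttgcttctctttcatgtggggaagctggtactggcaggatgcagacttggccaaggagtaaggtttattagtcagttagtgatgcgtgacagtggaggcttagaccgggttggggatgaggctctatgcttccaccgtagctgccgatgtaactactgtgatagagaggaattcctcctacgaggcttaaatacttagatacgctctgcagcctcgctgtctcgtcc
Ski: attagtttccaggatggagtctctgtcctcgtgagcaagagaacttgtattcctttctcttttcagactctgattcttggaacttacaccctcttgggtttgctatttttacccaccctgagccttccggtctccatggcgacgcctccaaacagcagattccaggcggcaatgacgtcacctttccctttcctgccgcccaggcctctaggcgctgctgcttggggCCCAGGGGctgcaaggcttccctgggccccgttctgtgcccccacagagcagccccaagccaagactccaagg
Gm15427: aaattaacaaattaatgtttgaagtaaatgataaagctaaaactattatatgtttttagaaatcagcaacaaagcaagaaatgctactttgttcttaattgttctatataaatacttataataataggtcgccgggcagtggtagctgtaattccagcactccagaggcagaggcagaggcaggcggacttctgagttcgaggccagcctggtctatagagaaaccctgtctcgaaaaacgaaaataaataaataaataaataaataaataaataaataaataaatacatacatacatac

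The remaining pair lay nearest the chemokine receptor gene Cxcr4 (chr1:128615010-128615309) and the Runx-family gene Runx3 (chr4:135198002-135198301), and were added after their values were seen. The Runx3 window held 2 Runx matches, 1 Ikaros match and 1 Ebf1 match, and the Cxcr4 window held none.
Cxcr4: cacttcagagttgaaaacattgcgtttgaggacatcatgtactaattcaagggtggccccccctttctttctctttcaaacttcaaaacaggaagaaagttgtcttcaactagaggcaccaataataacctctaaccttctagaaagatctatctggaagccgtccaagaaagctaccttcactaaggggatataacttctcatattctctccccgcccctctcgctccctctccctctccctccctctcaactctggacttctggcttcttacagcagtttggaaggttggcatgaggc
Runx3: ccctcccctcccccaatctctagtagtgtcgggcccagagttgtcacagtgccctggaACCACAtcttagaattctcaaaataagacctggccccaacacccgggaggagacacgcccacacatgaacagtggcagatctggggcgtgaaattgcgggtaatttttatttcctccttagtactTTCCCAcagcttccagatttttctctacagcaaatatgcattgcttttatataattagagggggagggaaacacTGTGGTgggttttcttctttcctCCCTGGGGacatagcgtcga

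Members were of nearly uniform width, with a median of 504 bp, and 77.7% of them were at most 520 bp wide. The median distance to the nearest TSS was 12900.5 bp. Of the 7746 members, 1534 lay within 5 kb of it and 691 more than 50 kb away. They lay upstream of the nearest TSS in 61.6% of cases. The nearest TSS belonged to 5989 different genes, and it was that of a protein-coding gene for 3381 members, of a processed pseudogene for 1609 and of a lincRNA for 1140. A further member within 10 kb was found for 2032 members (26.2%). The protein-coding gene with the most members was S1pr1, the receptor through which lymphocytes leave lymphoid tissue, with 8, followed by Myl10 with 6.

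In base composition the members were like broad DHS inside gene bodies and unlike promoters. Their median GC content was 46.6%, against 47% in the 9486 broad DHS in gene bodies more than 1 kb from a TSS and 60% in the 9925 broad promoter DHS within 1 kb of one. CpG dinucleotides numbered 1.31 per 100 bp in the median member and 6.80 per 100 bp in the median broad promoter DHS. Repeats took a median of 13.1% of a member, more than the 11.2% of broad gene-body DHS and the 5.70% of broad promoters.

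The median member had a mean log2 level of 3.85 over the 36 libraries, with members between 2.10 and 7.06. The median was also 3.85 for broad gene-body DHS, 3.79 for the 9009 narrow intergenic DHS at the same distances, and 4.73 for broad promoters. The 12 group means of the median member spanned 0.669 on the log2 scale, less than the 1.07 of narrow intergenic DHS. The groups differed in how closely the libraries repeated each other. The median member's replicate SD was between 0.163 and 0.18 in the Ikaros groups from 2 h to 24 h, 0.286 in the Ikaros group at 0 h, and between 0.223 and 0.339 in the Control groups.

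Library by library, the median over members was 3.72, 3.80 and 3.81 in the Ikaros line at 0 h, from lowest to highest, and 3.89, 3.97 and 4.02 in the Control line at 0 h. These groups did not overlap, and the Ikaros libraries were the lower ones. At 24 h the 3 Ikaros medians lay between 3.917 and 3.923 and the Control medians between 3.827 and 3.908, again without overlap but with the Ikaros libraries higher. The medians over all DHS were separated in the same direction at 24 h, at 4.053 to 4.077 in the Ikaros line and 3.962 to 4.031 in the Control line. That shift is thus not particular to the members. At 0 h the medians over all DHS overlapped, at 3.898 to 4.033 and 4.028 to 4.106. Broad gene-body DHS were separated at 0 h like the members, at 3.741 to 3.824 in the Ikaros line and 3.902 to 4.028 in the Control line. So were narrow intergenic DHS, at 3.694 to 3.800 and 3.885 to 4.031, so the shift at 0 h is not particular to the members either. Broad promoters went the other way at 0 h, where their median difference was 0.38 against -0.16 for the members.

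**Figure D1:**
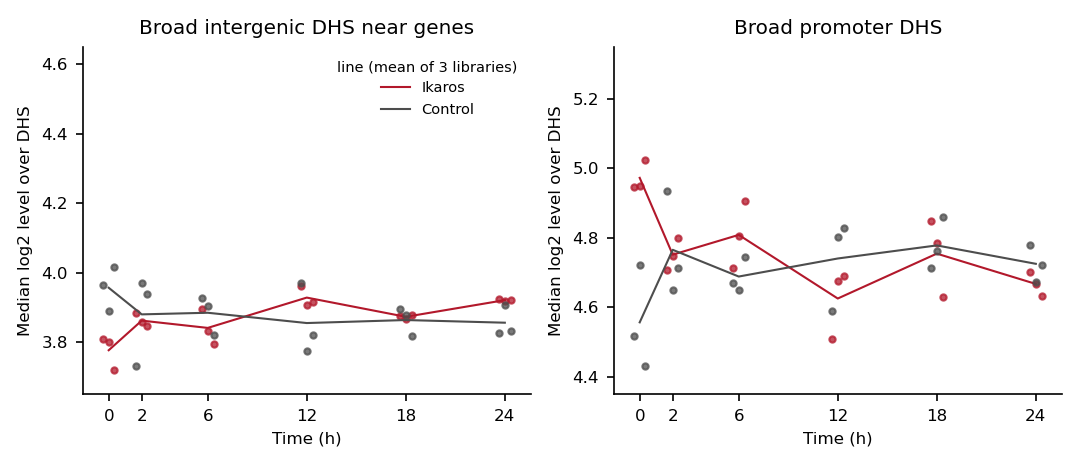
Median log2 level of the 7746 broad intergenic DHS near genes (left) and of the 9925 broad promoter DHS (right) in each library, by time in hours; points are libraries and lines join the means of 3. Both vertical axes cover 1 log2 unit and neither starts at 0. At 0 h the 3 Ikaros libraries lie below the Control libraries on the left and above them on the right.

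At 24 h, 116 members were more accessible in the Ikaros line and 58 were less so, out of 7746. That is 1.5% and 0.749% of the members, where the background over all DHS was 0.809% higher and 0.517% lower (limma with all 36 libraries, Benjamini-Hochberg adjusted p over 52788 DHS). Broad gene-body DHS gave nearly the same shares, 1.48% and 0.696%. Of the broad promoters, 0.171% were higher and 0.574% lower, and of the narrow intergenic DHS 0.566% and 0.366%. The median difference was 0.05 over the members and 0.06 over all DHS. After quantile normalisation of the libraries, which moved the members' median difference to -0.08, the calls were 89 higher and 85 lower. The number of members called at 24 h fell from 174 to between 23, without Ikaros replicate 4, and 79, without Ikaros replicate 6, when any 1 of the 6 libraries was left out.

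The members called higher and lower at 24 h differed from each other in composition. The 116 higher members had a median GC content of 41.2%, 0.785 CpG per 100 bp, a median log2 level of 3.53 and a median distance to the TSS of 17.2 kb. The 58 lower members had 52.2% GC, 1.76 CpG per 100 bp, a level of 4.74 and a distance of 9.18 kb. GC content and level thus moved with the direction of the call. With the trends of each library with level, GC content and width taken out, 38 members were called higher and 36 lower. Their further part in the calls was not tested.

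The member with the largest difference lay 1.81 kb upstream of the Clint1 TSS (chr11:45849782-45850237), the site whose central DNA is printed above with 3 E-protein matches. Its log2 level at 24 h was 4.83, 4.73 and 4.01 in the Ikaros replicates 4, 5 and 6, and 2.66, 2.96 and 2.18 in the Control replicates. The groups did not overlap, which was required of every member named by size at 24 h and so adds nothing to the call. The difference was 1.92 ± 0.30 (SE, n = 3 per group, adjusted p = 0.00146). It was -0.28 ± 0.30 at 0 h (adjusted p = 0.585) and called from 6 h on, with 1.40 at 6 h, 1.82 at 12 h and 1.41 at 18 h. In the Ikaros line the mean was 3.07 ± 0.25 (SD) at 0 h, 3.89 ± 0.05 at 2 h and 4.52 ± 0.45 at 24 h. In the Control line it was 3.35 ± 0.58, 3.22 ± 0.23 and 2.60 ± 0.39, so the means of the lines moved in opposite directions.

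A second kind of member was already higher in the Ikaros line before the drug. The DHS 4.35 kb upstream of Gm47669 (chr10:95707815-95708520) stood at 4.81, 4.87 and 4.92 in the Ikaros line at 0 h and at 2.93, 3.51 and 3.22 in the Control line. At 24 h the Ikaros libraries had 4.53, 4.22 and 4.35 and the Control libraries 2.17, 3.06 and 2.48. The Ikaros libraries were thus the higher ones at both times, by 1.65 ± 0.26 at 0 h (adjusted p = 0.000296) and 1.80 ± 0.26 at 24 h (adjusted p = 0.000553). Its difference did not change detectably between these times (0.15 ± 0.36, adjusted p = 0.834). The DHS 33.6 kb downstream of Gm13925 was called at all 6 times, with differences from 1.36 at 12 h to 1.96 at 6 h. Another such DHS, 7.19 kb upstream of Slc5a10, a sugar transporter gene, differed by 1.45 at 0 h (adjusted p = 0.0105) and 1.62 at 24 h (adjusted p = 0.0237). The last call was lost without any 1 of the 6 libraries of 24 h, at adjusted p between 0.0633 and 0.0973, and with the trends of level, GC content and width removed (adjusted p = 0.0712).

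At the other higher members named by size, the line difference was first called at 12 h. The DHS 14.3 kb upstream of Gm31663 (chr7:92965036-92965553), whose DNA is printed above, had a difference of 0.37 ± 0.34 at 6 h (adjusted p = 0.672), 1.77 ± 0.34 at 12 h (adjusted p = 0.00926) and 1.73 ± 0.34 at 24 h (adjusted p = 0.00854). From 6 h to 12 h its mean fell from 3.57 to 2.59 in the Control line and rose from 3.94 to 4.36 in the Ikaros line. Its 3 Ikaros libraries at 24 h had 4.87, 4.48 and 4.00, and its Control libraries 2.77, 2.56 and 2.84, without overlap, as the choice required. The call at 24 h was lost without Ikaros replicate 4 (1.52, adjusted p = 0.0849) and with trends removed (1.16, adjusted p = 0.0527). The DHS 61.3 kb upstream of Gm4486 differed by -0.95 at 0 h (adjusted p = 0.0702) and by 1.66 at 12 h (adjusted p = 0.0177). It was not called at 18 h (1.06, adjusted p = 0.16). From 6 h to 12 h its Control mean fell from 3.19 to 2.35 and its Ikaros mean rose from 3.28 to 4.01. At 24 h it differed by 1.56 (adjusted p = 0.0223), a call that was lost without any 1 library of 24 h, at adjusted p between 0.0539 and 0.128. It was also lost after quantile normalisation (1.30, adjusted p = 0.0648), and with trends removed the difference was 0.59 (adjusted p = 0.437).

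Among the lower members, the DHS 19.3 kb downstream of the lincRNA Gm28563 (chr5:118377547-118378047) had the largest difference. At 24 h it stood at 4.02, 4.12 and 3.90 in the Ikaros line and at 5.00, 5.27 and 5.28 in the Control line. All 3 Ikaros libraries were below every Control library, as the choice required, by -1.17 ± 0.19 in the mean (adjusted p = 0.00169). The difference was -0.19 at 0 h (adjusted p = 0.541) and called from 6 h on. The DHS 12.6 kb upstream of Ski (chr4:155235194-155235720) had 4.37, 4.48 and 4.78 in the Ikaros line at 24 h and 5.61, 5.62 and 5.80 in the Control line. Its Ikaros libraries were the low ones, with a difference of -1.13 ± 0.18 (adjusted p = 0.00208), and it was 1 of the 3 members called lower at 2 h, by -0.84 (adjusted p = 0.0442). It was not called at 6 h (-0.55, adjusted p = 0.156) and was called again from 12 h on. A DHS 28.1 kb upstream of Gm38135 and 29.1 kb upstream of Aff3, which encodes a transcription elongation factor, also differed by -0.99 ± 0.18 (adjusted p = 0.00615).

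The rest of the 6 lower members named by size rested on fewer settings. The DHS 46.4 kb upstream of Gm15427, of which 55.7% is repeat sequence, differed by -1.12 ± 0.29 (adjusted p = 0.0476), and the call was lost without any 1 of the 6 libraries, at adjusted p between 0.0799 and 0.23. It was also lost with the batch as a replicate block (adjusted p = 0.0523), after quantile normalisation (0.0529), with low values filtered (0.0515) and in a fit of the 24 h groups alone (0.0612), and with trends removed the difference was -1.73 (adjusted p = 0.0456). The DHS 29.4 kb upstream of 1600010M07Rik, of which 72.2% is repeat sequence, differed by -0.97 ± 0.23 (adjusted p = 0.0304). It lost the call without any 1 library of 24 h but Ikaros replicate 6, with adjusted p up to 0.142, and in a fit of the 24 h groups alone (0.0663). For the DHS 1.59 kb downstream of the lincRNA AC141471.6 the difference was -1.03 ± 0.23 (adjusted p = 0.0193), and the call was lost without any 1 library but Control replicate 5, with adjusted p up to 0.0957.

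**Figure D2:**
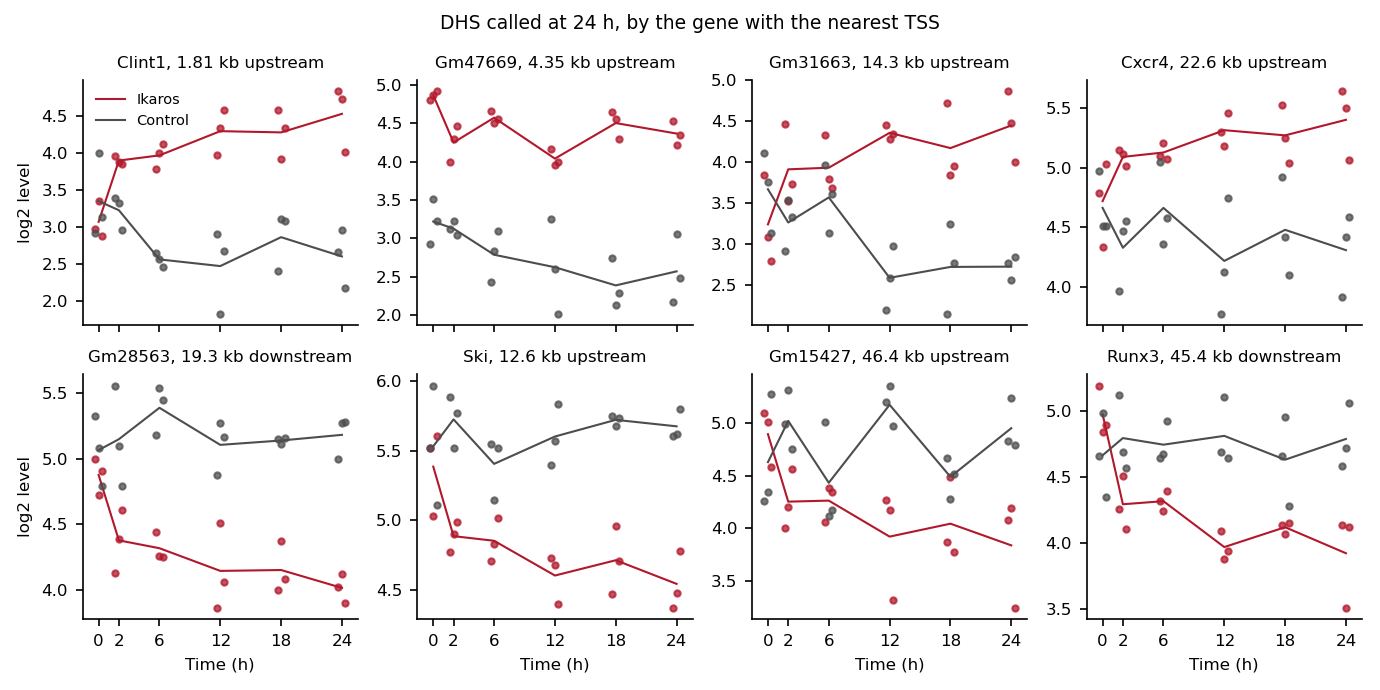
Log2 level of 8 members by time in hours in the Ikaros line (red) and the Control line (grey), titled by the gene with the nearest TSS; points are libraries and lines join the means of 3, and the vertical axes differ and do not start at 0. In the top row Gm47669 is separated from 0 h on, while Clint1, Gm31663 and Cxcr4 separate later. In the bottom row the Ikaros libraries of 24 h lie below the Control libraries in each panel.

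The number of members called was smaller at the earlier times with drug. At 2 h, 5 members were higher and 3 lower, against a background of 0.17% and 0.0246% of all DHS. The share of members called, 0.103%, was below the 0.195% of all DHS. At 6 h, 32 members were higher (0.413%, background 0.422%) and 17 lower (0.219%, background 0.155%). At 12 h, 119 were higher (1.54%, background 0.887%) and 44 lower (0.568%, background 0.428%), and at 18 h, 51 were higher (0.658%, background 0.5%) and 20 lower (0.258%, background 0.199%). The counts did not rise steadily. After quantile normalisation the split was 25 higher and 8 lower at 6 h and 44 and 27 at 12 h, and with trends removed it was 25 and 5 at 6 h and 18 and 15 at 12 h. With the batch as a replicate block, the counts were 3 at 2 h, 31 at 6 h and 108 at 12 h in place of 8, 49 and 163. Leaving out 1 library moved them to between 1, without Ikaros replicate 4, and 52, without Control replicate 5, at 2 h, and to between 4 and 45, without Ikaros replicate 6 and Control replicate 4, at 6 h. At 12 h the limits were 3, without Ikaros replicate 6, and 134, without Control replicate 4, and at 18 h they were 12, without Ikaros replicate 4, and 50, without Control replicate 5.

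Most members called at 24 h were also called at 12 h. Of the 116 higher ones, 86 were (74.1%, and 72.3% of the 119 higher at 12 h), and of the 58 lower ones, 37 were (63.8%, and 84.1% of the 44 lower at 12 h). The overlap of these 2 times was not counted over all DHS. At 12 h, 18 h and 24 h together, 22 members were called higher (0.284%, background 0.138%) and 11 lower (0.142%, background 0.102%). These times share no library, but their group means are among those that spanned 6 dimensions. Within a line, no member changed detectably from 2 h to 24 h (limma F-test, background 0.0% of all DHS in the Ikaros line and 0.0928% in the Control line). At an unadjusted p under 0.05 there were 12 such members in the Ikaros line (0.155%, against 0.193% of all DHS) and 468 in the Control line (6.04%, against 8.57%), both below the share over all DHS. With no change at all, a fraction of about 0.05 (not 0.05%) would be expected at that limit, and the Ikaros line fell far below it. The fit used a spread shared by all groups, and the Ikaros groups from 2 h on had the lower replicate SDs. A lack of calls in that line therefore does not show that levels were stable.

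Before the drug the lines already differed. At 0 h, 217 members were higher in the Ikaros line (2.8%, background 7.81%) and 539 were lower (6.96%, background 5.04%), with a median difference of -0.16 against -0.06 over all DHS. Broad gene-body DHS again gave like shares (3.19% and 7.03%). Quantile normalisation changed the split from 217 and 539 to 188 and 279, and with the trends of level, GC content and width removed it was 142 and 113. Without Control replicate 6 the number called was 209, and without Control replicate 5 it was 915. A fit of the groups of 0 h alone called 0 members, where 1963 (25.3%, against 28.1% of all DHS) had an unadjusted p under 0.05 in the fit of all libraries.

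The members higher at 0 h were rich in GC (median 52.9%) and the lower ones were not (45.7%), a contrast that ran the other way at 24 h. Among called members whose groups did not overlap at 0 h, the largest higher differences after Gm47669 were at the DHS 3.79 kb upstream of Gm48686 (1.51 ± 0.32, adjusted p = 0.00294) and 47.1 kb downstream of Gm49018 (1.5 ± 0.31, adjusted p = 0.00268). The largest lower differences were at DHS upstream of Gm22908 (-1.57 ± 0.46, adjusted p = 0.0241), Gm38395 (-1.54 ± 0.26, adjusted p = 0.000516) and Gm8307 (-1.46 ± 0.31, adjusted p = 0.00329). The DHS near Gm22908 was a weak site, at 0.31, 1.34 and 0.55 in the Ikaros libraries of 0 h and 2.77, 1.97 and 2.15 in the Control libraries. Those groups did not overlap, but the call was lost without Control replicates 4 (adjusted p = 0.101) or 6 (0.0657) or Ikaros replicates 4 (0.0931) or 6 (0.0627). It was also lost after quantile normalisation, where the difference was -0.83 (adjusted p = 0.294), and with trends removed (-1.68, adjusted p = 0.0535). At 24 h the lines differed at Gm38395 by 0.33 (adjusted p = 0.599) and at Gm8307 by 0.18 (adjusted p = 0.856).

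Of the 116 members higher at 24 h, 20 were also higher at 0 h (17.2%, and 9.22% of the 217 higher at 0 h). None of the 58 lower at 24 h was among the 539 lower at 0 h. One member was higher at 24 h and lower at 0 h, and 6 were lower at 24 h and higher at 0 h. Of all members, 2.8% were higher and 6.96% lower at 0 h. These overlaps were not counted over all DHS, so whether they are particular to the members was not tested. In the test of the change itself, the line difference became higher from 0 h to 24 h at 333 members (4.3%, background 2.85%) and lower at 150 (1.94%, background 3.4%), with a median change of 0.22 against 0.12 over all DHS. Broad gene-body DHS gave like shares (3.89% and 1.63%, median 0.22). Narrow intergenic DHS leaned the same way (3.41% and 0.688%), and broad promoters the other way (0.363% and 12.3%). After quantile normalisation the members' median change was -0.02, with 110 members higher and 83 lower. With trends removed it was -0.01, with 19 higher and 20 lower, and a fit of these 4 groups alone called 1 higher and 3 lower. The number called was 164 without Control 0 h replicate 6 and 722 without Control 0 h replicate 5, in place of 483.

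Among called members whose groups did not overlap at 24 h, the largest upward change was at the DHS upstream of Gm4486 (2.51 ± 0.50, adjusted p = 0.00813), where the line difference went from -0.95 to 1.56. With trends removed this change was 1.29 (adjusted p = 0.14), and the call was also lost in a fit of the 4 groups alone (adjusted p = 0.0615). The DHS 11 kb downstream of Gm10040, and 52.7 kb downstream of Il12a, went from -1.13 to 1.26 (change 2.39 ± 0.45, adjusted p = 0.00664). Its Ikaros libraries had 2.84, 3.05 and 3.18 at 0 h and 4.80, 4.07 and 4.36 at 24 h, and its Control libraries 4.25, 4.14 and 4.07 and then 2.77, 3.14 and 3.55. The Ikaros line was thus the lower one at 0 h and the higher one at 24 h, with no overlap at either time. The DHS 10.7 kb upstream of Strap, which encodes a receptor-binding protein of TGF-beta signalling, changed by 2.35 ± 0.50 (adjusted p = 0.0114). That too became 1.31 with trends removed (adjusted p = 0.191) and lost its call with the 4 groups alone (adjusted p = 0.0712). The downward changes named were -1.96 ± 0.32 at AC141471.6 (adjusted p = 0.00473), -1.88 ± 0.57 at Gm21182 (adjusted p = 0.0442) and -1.85 ± 0.34 at the DHS 2.38 kb upstream of Asic4 (adjusted p = 0.00605). Asic4 encodes a protein of the acid-sensing ion channel family. With trends removed the change at AC141471.6 was -1.24 (adjusted p = 0.0252) and that at Asic4 lost its call (adjusted p = 0.0546), as it did with the 4 groups alone (0.0566). At Gm21182 the call was lost without any 1 library of 24 h (adjusted p from 0.0578 to 0.0844), without Control 0 h replicate 6 (0.132) and without Ikaros 0 h replicate 5, which brought the change to -1.16 (0.114). The same call was lost with the replicate block (0.0567), with trends removed (0.142) and with the 4 groups alone (0.162).

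**Figure D3:**
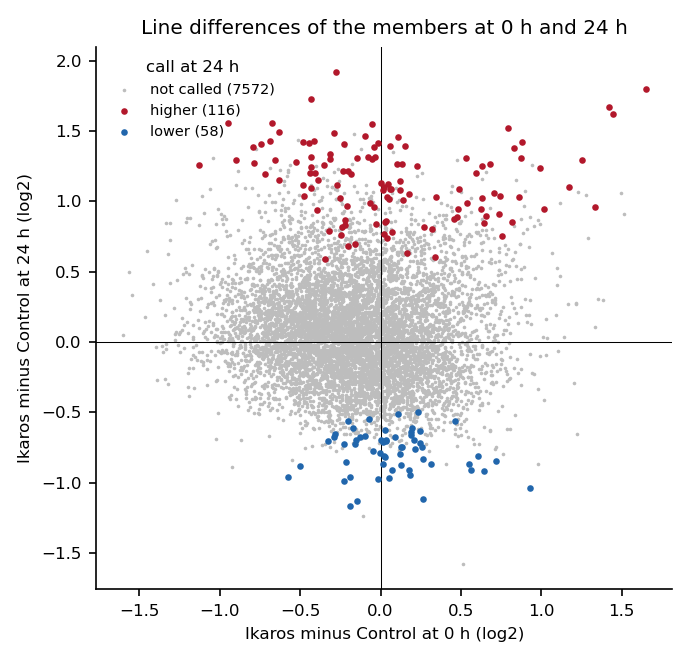
Ikaros minus Control difference at 0 h (horizontal) and 24 h (vertical) of each of the 7746 members, on the log2 scale; red points were called higher at 24 h (116), blue points lower (58), and grey points were not called. Red and blue points both lie on either side of 0 on the horizontal axis, so a member called in one direction at 24 h could have a difference of either sign at 0 h.

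Motif matches in the central 400 bp were counted in the members and in other broad DHS, as a description. The CTCF motif was in 21.9% of members, in 19.3% of broad gene-body DHS, in 3.64% of broad promoters and in 11.4% of all 19655 other broad DHS. The Runx motif TGTGGT was in 35.5% of members and 28.3% of other broad DHS, and the AP-1 motif TGANTCA in 13.2% and 9.16%. The GC-box GGGCGG, bound by Sp1, was in 11.3% of members and in 66.9% of broad promoters. The Ikaros motif TGGGAA was in 33.2% of members and 30.2% of other broad DHS. Shares over all members for the other motifs were 45.4% for E proteins, 16.0% for Ebf1, 15.4% for Irf (GAAANNGAA), 6.88% for Myc (CACGTG), 6.56% for PU.1 (GAGGAAGT), 5.38% for Foxo (TGTTTAC), 3.1% for Oct (ATGCAAAT) and 0.968% for Ets (CCGGAAGT). Both strands were searched, motifs could overlap, and a match is not evidence of binding.

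The motif shares of the called members differed by direction, as a description with no test. Of the 116 members higher at 24 h, 51.7% held the Runx motif, 27.6% the Ikaros motif and 14.7% the Ebf1 motif. Of the 58 lower members, 32.8% held the Runx motif, 39.7% the Ikaros motif and 36.2% the Ebf1 motif. AP-1 matches were in 14.7% of the higher and 24.1% of the lower members, and the Sp1 motif was in 3.45% and 22.4%. The GC contents given above moved with these shares, and their part in them was not tested. Members with the Ikaros motif were called at 24 h in 2.14% of cases and members without it in 2.3%.

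**Figure D4:**
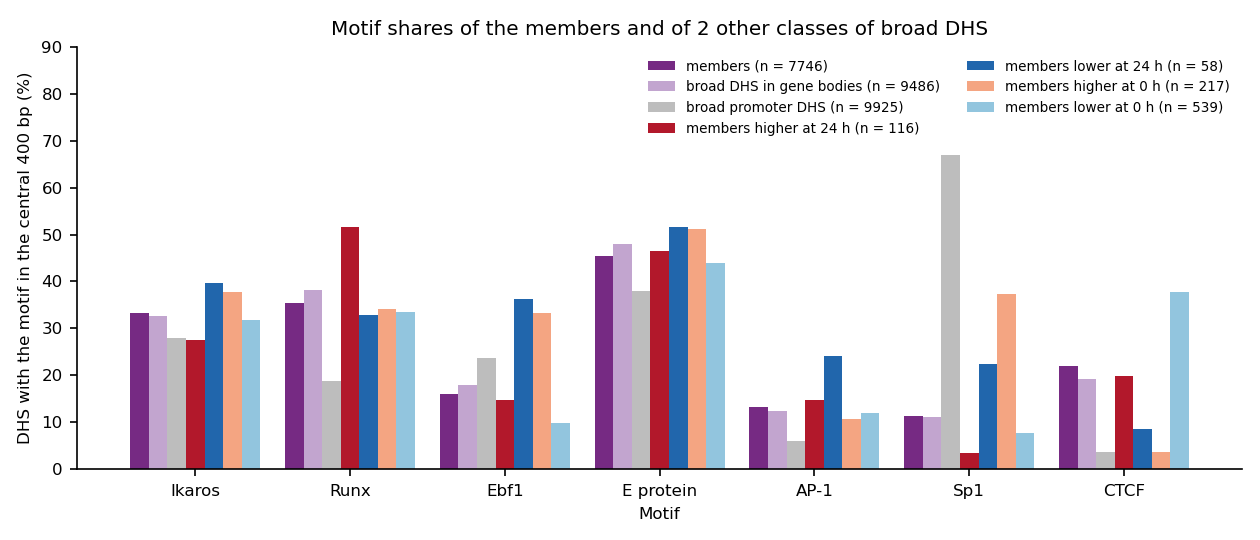
Percent of DHS with a match to each of 7 motifs in their central 400 bp, for the 7746 members, for broad gene-body DHS and broad promoter DHS, and for the members called at 24 h and at 0 h. The Sp1 bar of promoters (66.9%) and the CTCF bar of members lower at 0 h (37.7%) stand above those of the other sets for the same motif.

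Of the 1698 members with the CTCF motif, 203 were called lower and 8 higher in the Ikaros line at 0 h, or 12.4% in all, where 12.9% of all DHS and 9.76% of all members were called. Of the 539 members lower at 0 h, 37.7% held the CTCF motif, and of the 217 higher members 3.69% did. The median difference at 0 h was -0.35 over the members with the motif and -0.09 over the 6048 without it. At 24 h the medians were 0.09 and 0.04. The 2 sets were alike in median GC content (46.1% and 46.7%), distance to the TSS (12688 bp and 13000 bp) and level (3.92 and 3.84).

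Within each library, the median level of members with the CTCF motif was set against that of members without it. In the Ikaros line at 0 h the former lay below the latter by -0.17, -0.12 and -0.19 in replicates 4, 5 and 6, and in the Control line at 0 h the values were 0.15, -0.02 and 0.15. All 3 Ikaros libraries were below the 3 Control libraries. The group means differed by -0.25, at the smallest p that 3 libraries against 3 can give (exact permutation test, two-sided, p = 0.1). These libraries also gave the calls at 0 h described above, so the comparison restates those calls and is no separate support for them. The other 33 libraries lay between -0.09 and 0.27, and 3 of them were below 0. At 24 h the means were 0.18 ± 0.025 in the Ikaros line and 0.11 ± 0.035 in the Control line (SD, n = 3, exact permutation p = 0.2). Over the 6 times the exact p was between 0.1 and 0.9. Broad gene-body DHS showed a difference of -0.28 at 0 h (exact permutation p = 0.1).

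**Figure D5:**
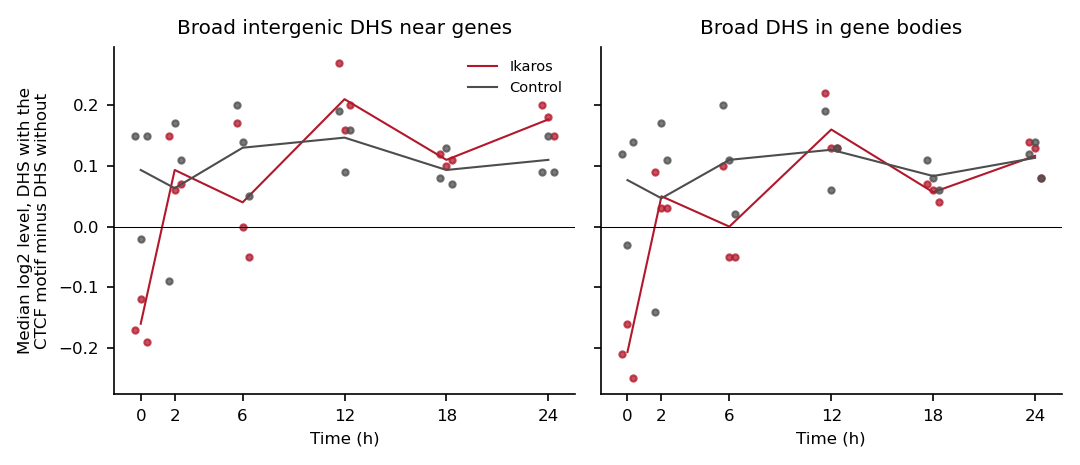
Median log2 level of DHS with the CTCF motif minus that of DHS without it, within each library, by time in hours, for the members (left) and broad gene-body DHS (right); points are libraries and lines join the means of 3. On the left the 3 Ikaros libraries of 0 h lie at -0.19 to -0.12 and the other 33 libraries at -0.09 or above.

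Of the 66 members nearest a gene of the 7 gene lists, 1 was called higher and 1 lower at 24 h (3.03%). That is near the share called of all members (2.25%) and of all DHS (1.33%). The B-lineage transcription factor list had 14 members nearest 8 of its 35 genes, of which 0 were higher and 1 was lower at 24 h, with a median difference of -0.22. The called member lay 45.4 kb downstream of the TSS of Runx3, a Runx-family transcription factor gene (chr4:135197876-135198426). Its Ikaros libraries at 24 h had 4.14, 3.51 and 4.12 and its Control libraries 4.58, 4.72 and 5.06. All Ikaros libraries were the lower ones, by -0.86 ± 0.20 (adjusted p = 0.0258), and the call was lost without Control replicates 5 (adjusted p = 0.0583) or 6 (0.132) or Ikaros replicates 4 (0.0619) or 5 (0.179), with trends removed (0.0936) and with the 24 h groups alone (0.0776). The other 2 members downstream of Runx3 had differences of -0.46 (adjusted p = 0.258) and -0.35 (0.401). The DHS 4.01 kb upstream of Sox4, a factor of B-cell progenitor survival, differed by -0.57 ± 0.15 (adjusted p = 0.0543), one 45.2 kb upstream of Erg by 0.49 (adjusted p = 0.414) and one 6.18 kb downstream of Id3, an inhibitor of E proteins, by -0.48 (adjusted p = 0.449).

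The adhesion and migration list had 15 members nearest 6 of 17 genes, of which 1 was higher and 0 were lower at 24 h, with a median of -0.17. The higher one lay 22.6 kb upstream of Cxcr4, the receptor that holds B-cell progenitors in the bone marrow (chr1:128614896-128615423). It had 5.64, 5.50 and 5.06 in the Ikaros line at 24 h and 3.92, 4.42 and 4.59 in the Control line. The Ikaros libraries were all higher, by 1.09 ± 0.24 (adjusted p = 0.021), and the difference was 0.06 at 0 h (adjusted p = 0.906). The call was lost without Control replicate 4 (adjusted p = 0.126), Ikaros replicate 4 (0.126) or Ikaros replicate 5 (0.104). Members 9.07 kb and 15.6 kb upstream of the same TSS had differences of -0.45 (adjusted p = 0.513) and 0.38 (adjusted p = 0.475). The 8 members of S1pr1, between 12.6 kb and 72.7 kb downstream of its TSS, had differences between -0.35 and 0.29, none of them called. A DHS 27.4 kb upstream of Itga4, an integrin subunit of B-cell progenitors, differed by 0.71 (adjusted p = 0.176).

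The pre-B receptor, signalling and recombination list had 20 members nearest 11 of 27 genes, none called at 24 h, with a median of -0.02. Its largest differences were 0.96 ± 0.32 at the DHS 40.6 kb downstream of Lig4, the ligase of V(D)J recombination (adjusted p = 0.123), and 0.70 ± 0.34 at a DHS 54.4 kb downstream of Syk, the kinase behind the pre-B receptor (adjusted p = 0.328). A DHS 2.97 kb upstream of Plcg2, a phospholipase of the same signalling chain, differed by -0.47 (adjusted p = 0.35), and one 10.5 kb upstream of the surrogate light chain gene Vpreb2 by -0.42 (adjusted p = 0.254). At 0 h, 2 of its 20 members were called, where 9.76% of all members were: 6.49 kb upstream of Dntt (0.80, adjusted p = 0.0176) and 5.35 kb downstream of Socs3 (0.67, adjusted p = 0.0126).

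In the metabolism list, 5 members lay nearest 5 of 23 genes and none was called, with a median of -0.07. A DHS 13.7 kb downstream of the enolase gene Eno1 differed by -0.64 (adjusted p = 0.194) and one 2.52 kb upstream of the glucose transporter gene Slc2a1 by -0.50 (adjusted p = 0.238). The values were 0.40 at Ldhb (adjusted p = 0.601) and 0.35 at Hk2 (adjusted p = 0.613). The cell-cycle, survival and quiescence list had 5 members nearest 3 of 21 genes, none called at 24 h, with a median of -0.06 and values between -0.27 at E2f2 and 0.26 at Ccnd1. Of the pair nearest the cyclin gene Ccne1, the DHS 34.1 kb upstream had -0.16 and that 22.3 kb downstream 0.08, the latter being higher in the Ikaros line at 0 h (0.67, adjusted p = 0.0154). The T-lineage list had 4 members and the myeloid and erythroid list 3, none called, each with a median of 0.12. Their largest values were 0.67 at Bcl11b (adjusted p = 0.158) and -0.48 at Elane (adjusted p = 0.172). The remaining ones were 0.25 at Cd3e, -0.24 and 0.00 at the pair nearest Tcf7, 0.25 at Cebpe and 0.12 at Csf3r.

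A member's line difference said little about the promoter of its nearest protein-coding gene. For the 3693 members whose nearest protein-coding TSS was within 100 kb and had a DHS of its own, Pearson's r across pairs between the differences of the 2 sites was 0.145 at 24 h, 0.136 at 12 h and 0.0752 at 0 h. For the 877 pairs within 10 kb it was 0.2 at 24 h. The pairs share libraries and are not independent. At 0 h the median difference of these members was -0.11 and that of their promoters 0.45.

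The highest mean levels among the members were 7.06 at a DHS 2.85 kb upstream of H2-Ea-ps, a pseudogene of the MHC class II region (chr17:34347493-34348095), and 7.06 at one 8.64 kb upstream of the pseudogene CR555305.2. They were followed by 6.33 at one 3.05 kb downstream of the interferon gene Ifna13. At the H2-Ea-ps site the Ikaros libraries of 24 h had 6.71, 6.88 and 6.95 and the Control libraries 7.28, 7.07 and 7.32. These groups did not overlap, but the difference of -0.37 ± 0.13 was not called (adjusted p = 0.129).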

How the data were processed

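DNase-seq was performed on 36 libraries, 3 replicates of the Ikaros and the Control line at each of 6 times. Per the labels and the methods, the authors trimmed reads, mapped them to mm10 with Bowtie2, called narrow and 500 bp peaks in each replicate with HOMER, merged those found in all replicates of a time, counted reads with bedtools, scaled the counts to RPKM and TMM, and used ARSyN to take out systematic noise that they could not tie to a batch or another known factor. The deposited values are taken as log2 levels: times the DHS width they sum to between 369486 and 432754 RPM in a library, where base e would give at least 1575615 RPM, more than a library can hold. The labels give a minimum of about 20 M reads per replicate, but not the depth each library reached, so no counting error could be set beside a value, and precision comes from the replicates alone. The spread between replicates is what ARSyN left, so the SDs, SEs and p-values given here may be too small. By how much was not tested.

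Broad peaks were called with a 500 bp window, so the width limit in effect selects that peak type. Gene bodies and TSS came from GENCODE vM21 basic, sequence from GRCm38, and whether the file counts starts from 0 or 1 was not settled, which left the number of members at 7746.

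One linear model with a term for each of the 12 groups was fitted to all 52788 DHS with limma 3.58.1 in R 4.3.3 (empirical Bayes with a mean-variance trend), and p-values were adjusted by Benjamini-Hochberg over all DHS with a threshold of 0.05. The fit was tested on simulated data with independent noise and the same spread in all groups. It recovered 177 of 200 changes of 2 log2 units at 24 h, with 12 false calls. The simulation held neither the unequal replicate spread of the groups nor the dependence between their means, so it does not test the fit under those. Replicate numbers name the batch in the labels, so they pair the samples across groups. Deviations of same-numbered libraries of the 2 lines correlated between -0.175 and 0.183 over 18 pairs. Alternatives were a replicate block, quantile normalisation, a filter on low values, removal of trends, fits of the compared groups alone, and leaving out each library.

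Members named were the 6 largest differences in each direction at 24 h, 3 in each direction at 0 h and for the change, among those called with no overlap between the groups, up to 4 per gene list and the 3 highest levels. A gene left out of the cell-cycle list is not reported here. The members, lists and tests were chosen with earlier results of these data known. No column without a sample was used. Python 3.11.15, pandas 2.3.3 and matplotlib 3.10.9 were used for tables and figures.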

Additional observations from a re-analysis of the deposited data

Results flagged for a closer look

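The difference between the lines was not the same at 0 h and at 24 h. By the interaction term of the limma model, it became higher at 333 members (4.3%, background 2.85%) and lower at 150 (1.94%, background 3.4%). Broad gene-body DHS gave like shares (3.89% and 1.63%). In both directions together, 6.24% of members and 6.26% of all DHS were called, so the members changed no more often than DHS in general. With the trends of level, GC content and width removed the counts were 19 and 20, and in a fit of these groups alone 1 and 3. For single members the change was 2.51 upstream of Gm4486, 2.39 downstream of Gm10040 and 2.35 upstream of Strap, on the log2 scale, and with trends removed the first and the last were 1.29 and 1.31 and were not called. It was -1.96 downstream of AC141471.6, -1.88 downstream of Gm21182 and -1.85 upstream of Asic4. By the study's methods, cells of 0 h were collected apart from the others and without drug. The labels give them the same batch numbers as the later times, so how far the collections differed is unknown. Drug, collection and time cannot be told apart in this contrast. The median GC content of members higher and lower at 0 h was 52.9% and 45.7%, and at 24 h it was 41.2% and 52.2%. The part of GC content in these changes was not tested beyond the fit with trends removed, which called 39 members. Groups of 3 are too small for a test of single outlying libraries.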

How the results depend on the processing

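The counts of members called depended on the settings. The 21 members named at 24 h, at 0 h or for the change had 24 results, with 291 values under the alternatives. Of these, 224 stayed called, 67 lost the call and 0 turned, which was largely fixed by the choice. Members named at 24 h or 0 h had no overlap between the groups, so leaving out 1 library could not turn them. The replicate block, the filter on low values and the fits of the compared groups alone leave the difference itself unchanged. With the batch as a replicate block, 3 members were called at 2 h, 31 at 6 h and 108 at 12 h, and the block moved no other count by more than 1.5 times. Quantile normalisation called 467 members before the drug, 3 after 2 h, 71 after 12 h, 31 after 18 h and 193 for the change, and it moved the share of higher members among those called from 28.7% to 40.3% at 0 h, from 73.0% to 62.0% at 12 h, from 66.7% to 51.1% at 24 h and from 68.9% to 57.0% for the change. With DHS of low level filtered, the 5 counts from 2 h to 24 h were 3, 28, 78, 40 and 101, over 5444 members. With trends of level, GC content and width removed, the 6 counts from 0 h to 24 h were 255, 4, 30, 33, 35 and 74, and 39 for the change, and the share of higher members among those called was 55.7% before the drug, 83.3% after 6 h, 54.5% after 12 h, 51.4% after 24 h and 48.7% for the change. Fits of the compared groups alone called 0 members at each time up to 12 h, 2 at 18 h, 77 at 24 h and 4 for the change. Leaving out 1 library gave 209 to 915 at 0 h, then 1 to 52, 4 to 45, 3 to 134, 12 to 50 and 23 to 79 at the later times, 164 to 722 for the change, 0 for the Ikaros line over 2 h to 24 h and 0 to 10 for the Control line, where 10 came without Control 2 h replicate 5. The cause of these shifts was not tested. Of the members named by list or level and not called, some turned. Under quantile normalisation and with trends removed, the 24 h difference became -0.01 and -0.03 at Hk2 and -0.33 and -0.06 at the Tcf7 DHS 35.4 kb upstream. With trends removed it became 0.01 at the upstream Ccne1 DHS and 0.01 at CR555305.2. That Tcf7 DHS had 0.00 with all libraries and between -0.14 and 0.16 with 1 left out. The Sox4 DHS passed the threshold after quantile normalisation (-0.49, adjusted p = 0.0415). The number of members was 7746 with starts counted from 1, 7876 with distance from the DHS centre and 7972 with protein-coding genes only. In the central 300 bp, 25.9% of members held the Ikaros motif. The labels give only a minimum depth, so the effect of depth on weak sites could not be measured.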

Other observations

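Members were unevenly spread over the chromosomes, from 599 on chromosome 2 to 8 on the Y chromosome. After S1pr1 and Myl10, the protein-coding genes nearest to the most members were Chst3, Klhl25, Lrrc8d and B4galt5, with 5 each. A DHS 4.24 kb downstream of Id3 was higher in the Ikaros line at 0 h (1.14, adjusted p = 0.0146) and differed by 0.04 at 24 h (adjusted p = 0.975). One 3.81 kb upstream of Cd24a, a surface marker of early B cells, was lower at 0 h (-0.80, adjusted p = 0.0387). Both were named after their values were seen.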
